A study of Mus musculus with 6 samples.

Results

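The miR-30 family was followed in small RNA from extracellular vesicles shed by apoptotic mouse osteoblasts, the cells that form bone. Its members were taken by name, as every entry of the deposited table named miR-30a, miR-30b, miR-30c, miR-30d or miR-30e with any arm or copy suffix. This gave 11 of 1712 entries, namely 5 guide arms (5p) and 6 passenger arms (3p). The table names 1528 entries as mouse miRNAs, and the other 184 have just a numeric ID. The mouse prefix mmu- is given once, with the sequences, and left out after that.

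The vesicles came from Prx1cre;SIRT6f/f mice (called knockout, 3 libraries) and from SIRT6f/f mice (called control, 3 libraries). All the mice carry floxed Sirt6 alleles, which encode a deacetylase of histones, and only the knockout mice carry Cre. The Prx1 enhancer drives Cre in the limb bud mesenchyme and its descendants, osteoblasts included, so other lineages keep Sirt6. Osteoblasts were kept for 48 h in medium without serum after apoptosis was induced, and the vesicles were pelleted by ultracentrifugation. The labels give neither the age of the mice nor whether each replicate is an animal or culture of its own. The p-values therefore rest on spread among these libraries, which may be technical. For single entries that spread was pooled over entries of similar level, so the p-values do not measure an entry's own spread. Sirt6 mRNA is not measured in small RNA libraries, so the deletion was not checked here.

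A miRNA hairpin is cut into a short duplex, of which the guide strand is usually kept in an Argonaute protein while the passenger strand is mostly degraded. The guide finds its target mRNAs mainly through its seed, bases 2 to 8. In mouse osteoblast precursor cells, miR-30 guides are known to repress Smad1 and Runx2, a signal transducer of bone morphogenetic proteins and the master transcription factor of osteoblasts, and so to restrain bone formation.

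The mature sequences below are shown because the seeds sort the arms into groups and because close copies can share reads. They are from RefSeq (GRCm38.p6), which matched 7 of the 11 entries by name. The seed is in capitals, and the sequences run 5′ to 3′.
mmu-miR-30a-5p: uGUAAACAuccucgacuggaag
mmu-miR-30e-5p: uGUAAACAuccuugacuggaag
mmu-miR-30c-5p: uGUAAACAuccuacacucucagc
mmu-miR-30a-3p: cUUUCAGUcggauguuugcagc
mmu-miR-30e-3p: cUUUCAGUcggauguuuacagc
mmu-miR-30c-1-3p: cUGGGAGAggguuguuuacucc
mmu-miR-30c-2-3p: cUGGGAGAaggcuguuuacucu

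The guides shown share the seed GUAAACA and their first 12 bases, counted from 1 at the 5′ end. Past that point miR-30a-5p and miR-30e-5p differ by the single substitution C13U, whereas miR-30a-5p and miR-30c-5p differ at 5 of the 22 bases compared. The passengers fall into separate seed groups, UUUCAGU for miR-30a-3p and miR-30e-3p and UGGGAGA for both miR-30c passengers. miR-30a-3p and miR-30e-3p also differ at 1 base, G18A. The labels do not say how reads that fit more than 1 of these sequences were assigned, so the split between miR-30a and miR-30e is uncertain for each arm. The arms of miR-30b and miR-30d had no matched sequence, so whether they share reads with the other arms was not judged. The other RefSeq miRNA with the seed GUAAACA was miR-384-5p, listed at 1.23 RPM in control replicate 3 and at 0 in the other libraries.

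The family is made from 6 hairpins that lie in 3 neighbouring pairs (GENCODE M21, GRCm38). Mir30a (chromosome 1, 23272269 to 23272339, plus strand, intergenic in the annotation) lies 19361 bases from Mir30c-2 (23291701 to 23291784, in an exon of the long non-coding RNA Gm27028). Mir30c-1 and Mir30e (chromosome 4, 120769534 to 120769622 and 120772606 to 120772697, minus strand) both lie within introns of Nfyc, a subunit of the transcription factor NF-Y. Mir30b and Mir30d (chromosome 15, 68337415 to 68337510 and 68341208 to 68341289, minus strand) are neighbours too, the first intergenic and the second in an exon of the long non-coding RNA Gm20732. miR-30c-5p is the same molecule from Mir30c-1 and Mir30c-2, and its passengers tell the hairpins apart. The hairpins on chromosome 1 are printed with their mature arms in capitals, to show how each guide and passenger face each other across the loop.
Mir30a: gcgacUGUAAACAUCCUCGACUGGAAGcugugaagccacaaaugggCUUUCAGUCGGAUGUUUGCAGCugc
Mir30c-2: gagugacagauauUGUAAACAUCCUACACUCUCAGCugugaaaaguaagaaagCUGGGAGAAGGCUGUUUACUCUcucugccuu

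Levels are in RPM, the reads of an entry per 1000000 reads of all listed entries of a library. The total of each library is fixed, so a gain in some entries is a loss in the rest, and fewer vesicles and less miRNA per vesicle cannot be told apart. If the lowest non-zero value of a column stands for 2 reads, as its whole steps of 0.5 of that value allow, depth was 1608276 to 1838239 reads in the knockout libraries and 1352045 to 1627705 reads in the control libraries, and 3 reads correspond to 1.63 to 2.22 RPM. Entries with only a numeric ID took 52.8% to 62.8% of reads in the knockout libraries and 43.1% to 50.01% in the control libraries, the highest share being that of knockout replicate 3. Among marker miRNAs chosen for other cell types and for mesenchyme, 6 of 7 for mesenchyme were listed (miR-199a-3p was not) and summed to 29374 to 60313 RPM in knockout against 78769 to 86869 RPM in control libraries. The 8 of 9 listed blood markers (all but miR-486a-5p) summed to 263 to 485 RPM in knockout and 630 to 888 RPM in control libraries, the 2 of 2 endothelial ones to 15.2 to 26.7 RPM in knockout and 47.9 to 63.6 RPM in control libraries, and the liver marker miR-122-5p had 3.26 to 10.6 RPM in knockout and 17.8 to 18.7 RPM in control libraries. The 3 of 4 listed muscle markers (all but miR-133b-3p) summed to 40.3 to 57.6 RPM in knockout and 71.0 to 85.1 RPM in control libraries, with the defining miR-1a-3p and miR-133a-3p at 0 in 4 libraries each, and the 6 of 6 epithelial ones to 16.9 to 31.1 RPM in knockout and 21.4 to 25.2 RPM in control libraries. None of the listed markers was at 0 in all libraries. By limma, described with the members below, 2 of 6 tested mesenchyme markers were lower in knockout vesicles (miR-214-3p, adjusted p = 0.0118, and miR-199b-3p, adjusted p = 0.0456), as were 2 of 7 tested blood markers (miR-486b-5p, adjusted p = 0.0172, and miR-144-3p, adjusted p = 0.0236). Their log2 fold changes were -1.05, -0.95, -1.03 and -1.47 in that order, and 0 tested markers of the other lists passed, where 2.69% of all tested entries were called lower. In direction, 5 of 6 tested mesenchyme markers and 7 of 7 tested blood markers lay below 0, against 60.1% of all tested entries. Of named entries that averaged 100 RPM or more, 82% lay below 0. All 6 tested mesenchyme markers reached that level, so their count was near that share, and of the blood markers only miR-486b-5p did. The mesenchyme marker above 0 was miR-145a-5p (log2 fold change 0.11, limma adjusted p = 0.834). The part of these shifts in the miR-30 values was not tested.

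Guide arms carried nearly all of the family's reads. The 5p arms together had 5322, 5685 and 3855 RPM in knockout replicates 1 to 3, against 7001, 6849 and 6302 RPM in control replicates 1 to 3. The 3p arms together had 244, 253 and 141 RPM in the knockout libraries, against 335, 345 and 371 RPM in the control libraries. In each of these sums every knockout library lay below every control library, and knockout replicate 3 was the lowest. The 3p arms made up 4.05% ± 0.461 of family reads in knockout and 4.98% ± 0.518 in control vesicles (SD, n = 3 each), with no overlap between the groups. The passengers did not move together. Summed, those of miR-30a, miR-30d and miR-30e took 2.68% to 3.54% of family reads in knockout and 3.85% to 4.88% in control libraries. The sum of those of miR-30b and miR-30c took 0.742% to 0.844% in knockout and 0.607% to 0.717% in control libraries. In RPM that sum was 33.7 to 46.6 in knockout and 43.6 to 52.6 in control libraries. Within these sums 2 passengers went against their group, with overlap. The mean share of miR-30d-3p was 0.0655% in knockout and 0.0268% in control, and that of miR-30c-2-3p was 0.291% in knockout and 0.362% in control. miR-30c-1-3p had 0.421% in knockout and 0.251% in control. No test was made of sums over the members.

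miR-30a-5p was the most abundant member, with 2122, 2301 and 1535 RPM in knockout libraries against 2733, 2642 and 2529 RPM in control libraries. It ranked 35th by mean RPM among the entries with a mouse miRNA name. miR-30d-5p had 1383, 1421 and 896 RPM in knockout libraries against 1826, 1809 and 1627 RPM in control libraries. For these guides the groups did not overlap, and the spread was wider among knockout libraries.

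miR-30e-5p, from the Nfyc intron, had 971, 1005 and 718 RPM in knockout libraries against 1169, 1114 and 1005 RPM in control libraries. miR-30c-5p, made from Mir30c-1 and Mir30c-2, had 709, 811 and 625 RPM in knockout libraries against 1078, 1060 and 952 RPM in control libraries. The groups overlapped for miR-30e-5p, by the nearly equal values of knockout replicate 2 and control replicate 3, and did not for miR-30c-5p. miR-30b-5p, the rarest guide, had 136, 146 and 82.1 RPM in knockout libraries against 195, 224 and 189 RPM in control libraries, again with no overlap.

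The passengers spanned a wider range of levels. miR-30a-3p had 136, 158 and 66.4 RPM in knockout libraries against 198, 215 and 238 RPM in control libraries. miR-30e-3p had 59.7, 42.9 and 39.2 RPM in knockout libraries against 81.5, 83.6 and 87.9 RPM in control libraries. Neither passenger overlapped between the groups, and the control libraries lay close together for miR-30e-3p.

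The miR-30c passengers, which share a seed but come from different chromosomes, differed in pattern. miR-30c-2-3p had 23.0, 15.3 and 8.16 RPM in knockout libraries against 31.0, 19.97 and 25.8 RPM in control libraries. miR-30c-1-3p had 19.9, 21.5 and 21.8 RPM in knockout libraries against 12.98, 22.2 and 17.8 RPM in control libraries. Both overlapped between the groups, and their ratio, miR-30c-2-3p over miR-30c-1-3p, was 0.747 ± 0.392 in knockout and 1.58 ± 0.753 in control libraries (SD, n = 3 each), which also overlapped. miR-30b-3p, at 3.73 to 7.34 RPM in knockout and 1.48 to 8.65 RPM in control libraries, and miR-30d-3p, at 1.24 to 7.91 RPM in knockout and 0 to 2.96 RPM in control libraries, were near the level of 3 reads. For miR-30d-3p the exact 95% Poisson interval, which covers counting error only, ran from 4.32 to 13.3 RPM in its highest library, knockout replicate 2, and up to 2.27 RPM in control replicate 3, where it was listed at 0.

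**Figure D1:**
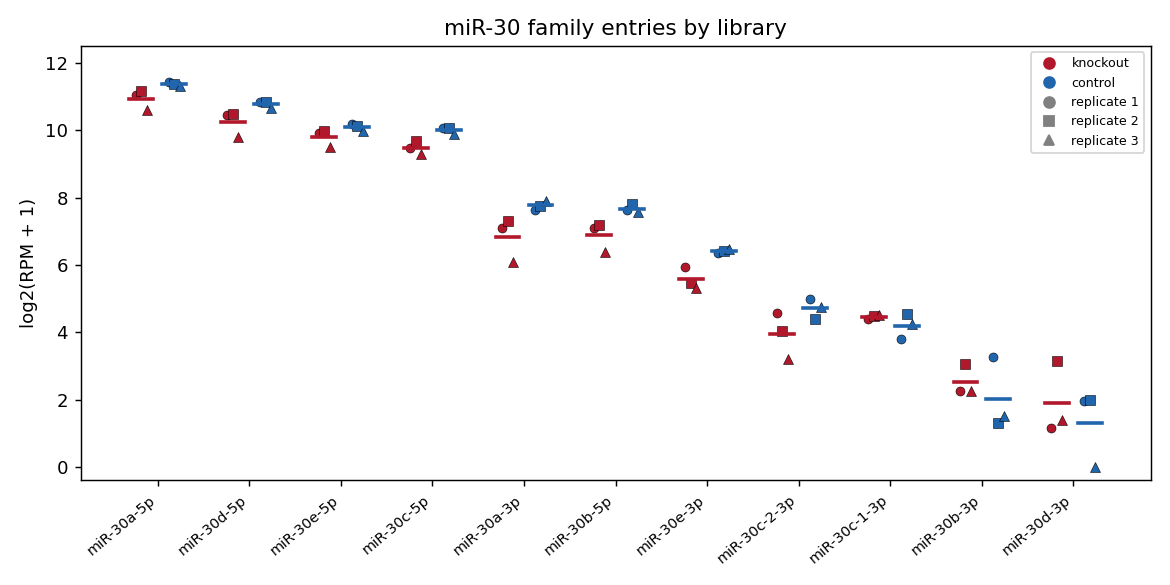
Levels of the 11 miR-30 entries as log2(RPM + 1) in each library, knockout left of control for each entry, with marker shape giving the replicate and bars giving group means. Knockout replicate 3 was the lowest knockout library for 8 of the 11 entries. For 6 of the 11 every knockout library lay below every control library, as for 19.3% of all tested entries and 70.3% of named entries that averaged 100 RPM or more.

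The order of the guides was the same in both groups, miR-30a-5p first, then miR-30d-5p, miR-30e-5p, miR-30c-5p and miR-30b-5p. In knockout vesicles the library ranges of miR-30d-5p and miR-30e-5p overlapped, as did those of miR-30e-5p and miR-30c-5p, although within each of the 3 libraries the first of each pair was higher. In control vesicles only miR-30e-5p and miR-30c-5p overlapped among neighbouring guides. miR-30b-5p and miR-30a-3p could not be told apart in level, at 121 ± 34.2 and 120 ± 47.7 RPM in knockout vesicles and at 203 ± 18.6 and 217 ± 19.8 RPM in control vesicles (SD, n = 3 each). The lengths of these arms are 22 or 23 bases where the sequence was matched, so RPM needed no correction for length.

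The make-up of the guide pool was then compared as shares. miR-30a-5p took 40.1% ± 0.371 of guide reads in knockout and 39.2% ± 0.795 in control vesicles, and miR-30d-5p took 24.7% ± 1.40 in knockout and 26.1% ± 0.301 in control vesicles (SD, n = 3 each). miR-30e-5p took 18.2%, 17.7% and 18.6% in knockout libraries against 16.7%, 16.3% and 15.9% in control libraries, so each knockout library was above each control library. miR-30b-5p took 2.55%, 2.56% and 2.13% in knockout libraries against 2.79%, 3.27% and 3.003% in control libraries, so each knockout library was below each control library. miR-30c-5p took 13.3%, 14.3% and 16.2% in knockout libraries against 15.4%, 15.5% and 15.1% in control libraries, where the groups overlapped and the knockout libraries were spread more widely. These shares do not depend on what a library is scaled to, and they were not tested. How often such shares separate by group in other families was not counted. The split between miR-30a-5p and miR-30e-5p is uncertain, since these guides may share reads.

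**Figure D2:**
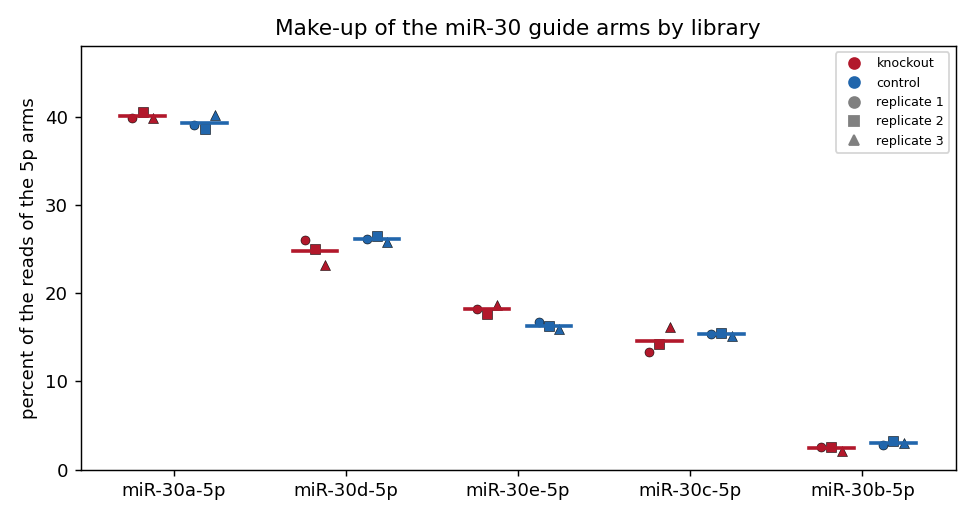
Share of the reads of the 5 guide arms taken by each guide, in percent, knockout left of control, with marker shape giving the replicate and bars giving group means. miR-30e-5p, at 17.7% to 18.6% in knockout and 15.9% to 16.7% in control libraries, was higher in each knockout library than in each control library. The shares were not tested, and miR-30e-5p may share reads with miR-30a-5p.

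The bias toward the guide was then measured within each hairpin name as log2((5p RPM + 1)/(3p RPM + 1)), with copies of the same name summed per arm. For miR-30a it was 3.95, 3.86 and 4.51 in knockout libraries against 3.78, 3.61 and 3.41 in control libraries. For miR-30e it was 4.002, 4.52 and 4.16 in knockout libraries against 3.83, 3.72 and 3.50 in control libraries. The guide was therefore more dominant in each knockout library than in each control library for both hairpins, while for miR-30c, at 4.02, 4.43 and 4.34 in knockout libraries against 4.58, 4.62 and 4.42 in control libraries, the values overlapped.

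Limma was fitted to this ratio over the 42 hairpin names with both arms at a mean of at least 10 RPM, which held 3 of the 5 miR-30 names. The difference, knockout minus control, was 0.54 ± 0.22 (SE) for miR-30e (limma adjusted p = 0.207), 0.51 ± 0.23 for miR-30a (limma adjusted p = 0.311) and -0.28 ± 0.20 for miR-30c (limma adjusted p = 0.662), so none passed 0.05. Without knockout replicate 3 the difference for miR-30a was 0.31. Of all 42 names, 7.14% passed, 64.3% had a difference above 0, 16.7% had higher values in knockout with no overlap, and 2.38% had lower ones. miR-30b and miR-30d had passengers below the minimum, and their log2 ratios were 4.37 ± 0.420 and 8.33 ± 0.978 in knockout and 5.64 ± 1.14 and 9.46 ± 1.05 in control vesicles (SD, n = 3 each). By the size of the mean log2 ratio the 3 tested names ranked 16th (miR-30c), 19th (miR-30e) and 21st (miR-30a) of the 42, whose median size was 3.65. In 25 of the 42 names, miR-30 included, the 5p arm was the higher.

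**Figure D3:**
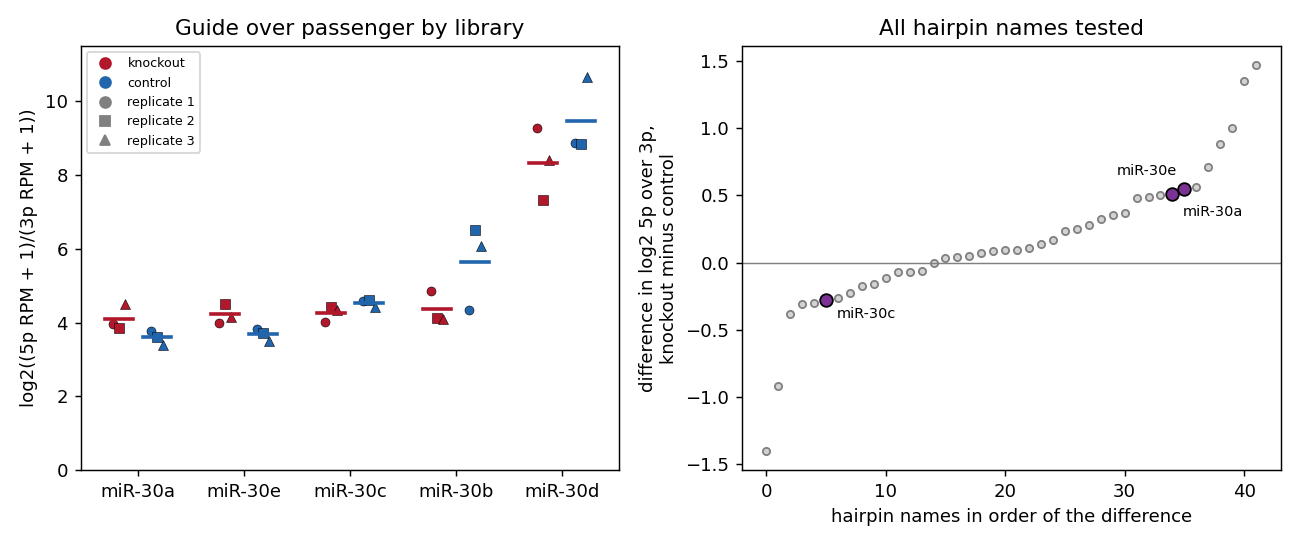
Left, the log2 ratio of 5p to 3p for each miR-30 hairpin name and library, knockout left of control, with bars giving group means. Right, the difference of this ratio, knockout minus control, for all 42 hairpin names in order of the difference, with miR-30a (0.51), miR-30e (0.54) and miR-30c (-0.28) in purple.

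Knockout was compared with control vesicles entry by entry with limma on log2(RPM + 1), over the 1114 entries with at least 1 RPM in at least 3 libraries, and all 11 members were among them. None of the 11 passed a Benjamini-Hochberg adjusted p of 0.05, against 4.85% of all tested entries (2.69% lower and 2.15% higher). The 5 guides had log2 fold changes, knockout over control, of -0.43 ± 0.29 (SE) for miR-30a-5p, -0.54 ± 0.29 for miR-30d-5p, -0.30 ± 0.29 for miR-30e-5p, -0.53 ± 0.29 for miR-30c-5p and -0.78 ± 0.31 for miR-30b-5p, with limma adjusted p from 0.114 for miR-30b-5p to 0.649 for miR-30e-5p. Without knockout replicate 3 they were -0.25 for miR-30a-5p, -0.32 for miR-30d-5p, -0.15 for miR-30e-5p, -0.44 for miR-30c-5p and -0.52 for miR-30b-5p. Among passengers, miR-30a-3p had -0.94 ± 0.31 (limma adjusted p = 0.0514), miR-30e-3p -0.84 ± 0.35 (limma adjusted p = 0.132) and miR-30c-2-3p -0.78 ± 0.44 (limma adjusted p = 0.318), which was -0.41 without knockout replicate 3. miR-30c-1-3p had 0.27 ± 0.44 (limma adjusted p = 0.766) and 0.076 without control replicate 1. miR-30b-3p and miR-30d-3p had 0.49 ± 0.68 and 0.59 ± 0.75, values that rest on few reads, and that of miR-30d-3p changed sign without knockout replicate 2 (-0.033) and without control replicate 3 (-0.066).

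In all, 8 of 11 members lay below 0, against 60.1% of all tested entries and 82% of the 128 named entries that averaged 100 RPM or more. The median over the members was -0.53, against -0.27 over all tested entries and -0.64 over those 128. For 6 of 11 members every knockout library lay below every control library, against 19.3% of all tested entries. The reverse held for 0 members, against 6.28% of all tested entries. Among the 6 members that averaged 100 RPM or more, 5 were lower in this way, against 70.3% of the 128 named entries at that level. The family's counts were thus near those of other abundant named miRNAs.

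The filter on low entries decided whether any member was called. With entries kept only at a mean of at least 10 RPM (355 entries, 9 members), miR-30a-3p, miR-30e-3p and miR-30b-5p passed (limma adjusted p = 0.0254, 0.0452 and 0.0480), at the same log2 fold changes. With this filter 71 of all 355 entries were called lower and 27 higher, so calls were frequent well beyond the family. Over the alternatives tried, the limma adjusted p of miR-30a-3p ranged from 0.0254 to 0.436. Without knockout replicate 3 the log2 fold change of miR-30a-3p was -0.56.

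The size of the guides' differences depended on the scale. With libraries rescaled to the total of named entries, the median over all tested entries was -0.074, and the log2 fold changes were -0.15 for miR-30a-5p, -0.022 for miR-30e-5p and -0.66 for miR-30a-3p. With a further scaling, chosen after seeing the data, to named entries other than miR-6236, miR-6238, miR-6239, miR-6240 and miR-3968, which may be fragments of other RNAs, that median was 0.064, miR-30a-5p turned to 0.036, miR-30e-5p turned to 0.16, and miR-30a-3p had -0.48. miR-30b-5p, miR-30c-5p and miR-30d-5p stayed below 0 on both scales. They had -0.50, -0.25 and -0.26 on the scale of named entries, and -0.32, -0.069 and -0.072 on the further one. Median centring and quantile normalization left all 5 guides below 0.

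**Figure D4:**
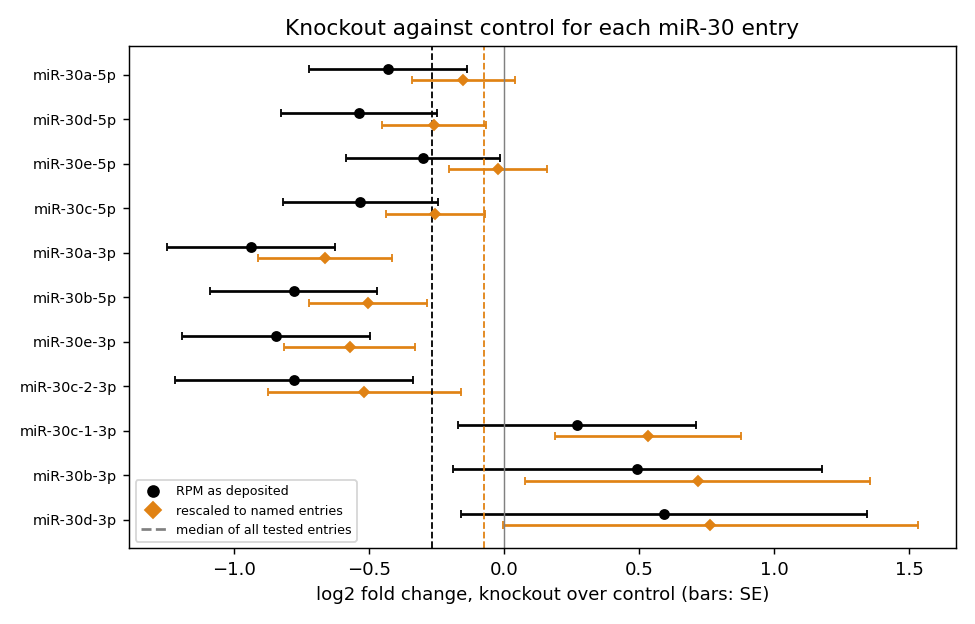
Log2 fold change, knockout over control, with its SE for each miR-30 entry, in RPM as deposited (black) and after rescaling to named entries (orange). Dashed lines give the median of all tested entries on each scale, -0.27 and -0.074, and miR-30a-3p lies at -0.94 and -0.66.

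The share of the family shows the same dependence. The family took 0.557%, 0.594% and 0.400% of all reads in knockout libraries against 0.734%, 0.719% and 0.667% in control libraries. Of the reads of named entries it took 1.22%, 1.26% and 1.07% in knockout libraries against 1.29%, 1.44% and 1.32% in control libraries. On both denominators the groups did not overlap. The log2 difference of the family share of all reads was -0.47, and -0.30 without knockout replicate 3. Without the 5 possible fragments, which took 7.06% ± 0.600 of all reads in knockout and 2.67% ± 1.01 in control vesicles, the family's share of named reads was 1.41% ± 0.0756 in knockout and 1.42% ± 0.0658 in control vesicles (SD, n = 3 each), and the groups overlapped.

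**Figure D5:**
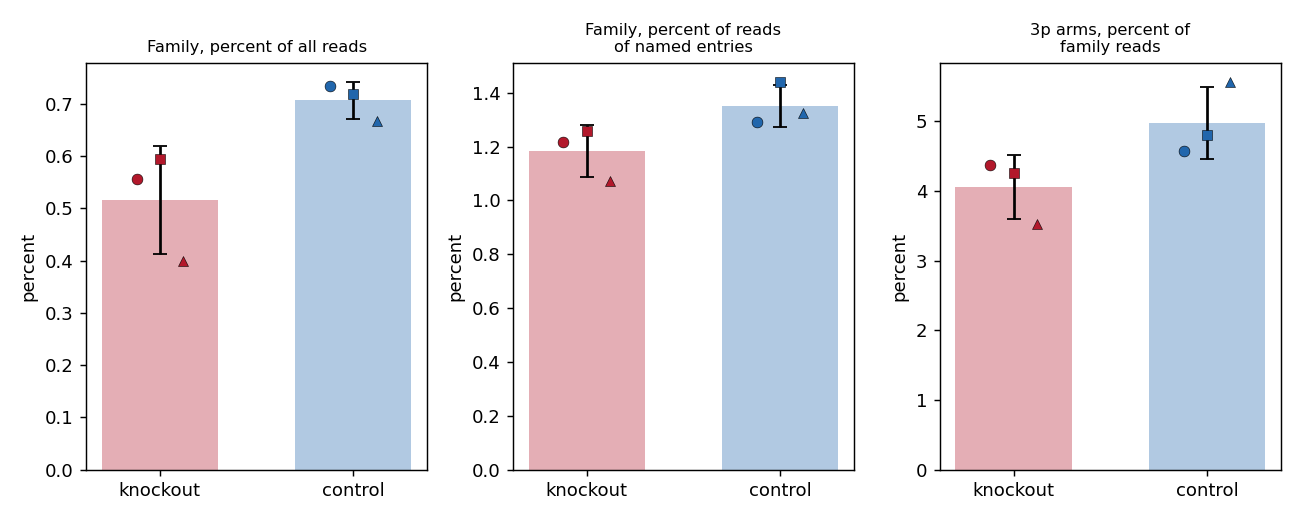
Share of the family in all reads (left) and in the reads of named entries (middle), and share of the 3p arms in family reads (right), in percent. Bars are means of 3 libraries with SD, points are libraries, and knockout replicate 3 had the lowest share in each panel, at 0.400%, 1.07% and 3.53%.

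miR-30f, which carries the family name but was not among the members, is annotated on the opposite strand of the Mir30e hairpin (chromosome 4, 120772621 to 120772642, plus strand). Its sequence is shown because its seed is shifted by a base from that of the guides.
mmu-miR-30f: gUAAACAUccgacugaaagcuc
It was listed at 0 in all knockout libraries, where 3 reads would be 1.63 to 1.87 RPM, and at 3.60, 0 and 3.07 RPM in control libraries. The exact 95% Poisson intervals of single libraries, which cover counting error only, overlapped. They reached 2.29, 2.08 and 2.01 RPM in knockout replicates 1 to 3 and began at 1.17 and 0.997 RPM in control replicates 1 and 3. Control replicate 2 was at 0 like the knockout libraries, and the difference was not tested.

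The entries whose profile over the 6 libraries was most like that of miR-30a-5p were sought among 265 named entries outside the family that averaged 10 RPM or more. The measure was the root mean square difference of log2(RPM + 1) after centring each profile on its own mean. The 5 closest were miR-16-5p (0.047), miR-544-5p (0.052), miR-146b-5p (0.052), miR-34c-5p (0.061) and miR-222-3p (0.065), against a median of 0.343 over the candidates. The other guides lay at 0.075 (miR-30d-5p), 0.078 (miR-30e-5p), 0.103 (miR-30c-5p) and 0.206 (miR-30b-5p), whereas its own passenger miR-30a-3p lay at 0.343. For the family total, miR-16-5p (0.052), miR-146b-5p (0.052), miR-544-5p (0.0598), miR-222-3p (0.0603) and miR-146a-5p (0.061) were closest. These profiles share the libraries and their fixed total.

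Other miRNAs known to act on the same osteoblast regulators were set beside the family. Of 10 further miRNAs from a known panel of Runx2 regulators, 4 were tested, 3 lay below 0 and 0 passed in either direction by limma, where 60.1% of all tested entries lay below 0 and 4.85% passed. The member above 0, named after its value was seen, was miR-218-5p (log2 fold change 1.37 ± 0.71, limma adjusted p = 0.252), at 5.60, 7.34 and 4.90 RPM in knockout libraries against 1.44, 6.66 and 0 RPM in control libraries, which overlapped. miR-23a-3p had 2557, 2667 and 1992 RPM in knockout libraries against 3921, 3390 and 3169 RPM in control libraries (log2 fold change -0.54, limma adjusted p = 0.280). miR-34c-5p had 3090, 3351 and 2124 RPM in knockout libraries against 3614, 3961 and 3485 RPM in control libraries (-0.39, limma adjusted p = 0.529). No knockout library reached the lowest control library for either, as for 70.3% of the named entries that averaged 100 RPM or more.

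Of 7 miRNAs reported to repress bone morphogenetic protein receptors, Smads or Dlx5, 5 were tested, all 5 lay below 0 and 0 passed by limma, where 60.1% of all tested entries, and 82% of the named entries that averaged 100 RPM or more, lay below 0. miR-26a-5p had 26160, 27584 and 15804 RPM in knockout libraries against 42596, 38280 and 35284 RPM in control libraries (log2 fold change -0.78, limma adjusted p = 0.185). miR-100-5p had -0.72 (limma adjusted p = 0.212) and miR-26b-5p had -0.84 (limma adjusted p = 0.0706). The medians of these lists, -0.47 and -0.72, stand beside -0.53 for the miR-30 members, and differences between the lists were not tested.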

How the data were processed

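Small RNA libraries of vesicle RNA were sequenced in 3 knockout and 3 control samples. The authors deposited 1 table of RPM values, in which each column sums to 1000000. The submitters' processing notes name fastp and edgeR without roles or versions. The aligner, the miRNA release and the build are not stated there. In each column the RPM values were whole multiples of 0.5 times the smallest value above 0 (tolerance 0.001). No value stood at a single step, so these are not complete raw counts and no count test was run.

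Groups and replicate numbers are from the sample titles. Limma 3.58.1 in R 4.3.3 was fitted with a mean-variance trend to log2(RPM + 1), 2-sided, with Benjamini-Hochberg adjustment over all 1114 entries at 1 RPM or more in at least 3 libraries, and likewise to the 5p over 3p ratio of 42 hairpin names. Fold changes on this scale understate those of low entries. The entry fit put the whole weight on the trend, so an entry's own spread hardly enters its SE. The members and lists were chosen with earlier results of these data known. Named entries are all members, the 5 most alike, and members of the Runx2 and bone morphogenetic protein lists with a mean of at least 100 RPM or past the threshold. Marker miRNAs and miR-218-5p were named after their values were seen. Sequences are from RefSeq and positions from GENCODE M21. No 2 libraries held identical values. Alternatives were other pseudocounts, filters, priors and scalings, a replicate block, and leaving out each library.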

Additional observations from a re-analysis of the deposited data

How the results depend on the processing

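No member was called with pseudocounts of 0.5 or 5, without the trend, with a robust prior, without a filter, on any other scale or with any library left out. The exception was the filter at a mean of at least 10 RPM, which gave 3 calls among 9 members. There 71 of all 355 entries tested were called lower. The signs of miR-30a-5p (0.036) and miR-30e-5p (0.16) turned on the scale of named entries other than the 5 possible fragments, and that of miR-30d-3p turned without knockout replicate 2 (-0.033) and without control replicate 3 (-0.066), within a range of -0.066 to 0.96 with a library left out. Of the remaining alternatives for single members and hairpins, 216 kept direction and side of the threshold. The log2 difference of the family share was -0.47 of all reads and -0.19 of named reads, by the change of denominator. With a library left out it ranged from -0.58 to -0.30, and that of the passenger share, -0.30 with all libraries and -0.40 without miR-30c, from -0.36 to -0.20. None of the miR-30 arm ratios was called under any alternative. Over all entries, limma called 24 higher and 30 lower, 28 and 5 with scaling to named entries, 38 and 2 without the possible fragments, 32 and 8 with median centring, 32 and 16 with quantile normalization, 21 and 15 at a pseudocount of 0.5, 22 and 17 with the robust prior, 21 and 15 with no filter and 27 and 71 at a mean of at least 10 RPM. Without the trend it called 0, and an unadjusted p under 0.05 was reached by 55 higher and 75 lower entries. With a library left out the calls ran from 0 and 0, without control replicate 3 (53 and 84 with an unadjusted p under 0.05), to 26 and 15, without knockout replicate 3. Same-numbered libraries did not deviate together (r = 0.005, -0.024 and 0.011 across entries), so the replicate block rests on a shared number only. With the block, 0 members and 0 of the 42 arm ratios were called (7 ratios higher and 1 lower with an unadjusted p under 0.05), and 19 entries were higher and 11 lower.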
